A study of Homo sapiens with 6 samples.

Results

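The mitochondrial calcium uniporter and the VDAC channels were described here through 8 genes, taken by exact gene symbol from a table of 58051 genes: MCU, SMDT1, MICU2, MCUR1, LETM1, VDAC1, VDAC2 and VDAC3. All 8 matched 1 row each, and all 8 reached 1 TPM in at least 3 libraries, as 15574 genes did. TPM is a length-corrected share of a library's transcripts, so levels can be set side by side between genes. The cells were of MDA-MB-231, a human breast cancer line established from a pleural effusion, with the genotype given as WT. They had been stained with FITC-labelled recombinant human FABP4, a small fatty acid carrier best known from adipocytes, and sorted by flow cytometry into a FABP4 binding and a FABP4 non-binding group of 3 libraries each. Both groups carry the stain and the sort, so neither is an untouched culture, and no unsorted group was analysed here. No label states that a group's libraries are independent cultures or sorts, and a p-value here therefore speaks only of the spread among the 6 libraries, which may be technical.

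Calcium passes from the endoplasmic reticulum to mitochondria through both mitochondrial membranes. VDAC proteins are the broad pores of the outer membrane and also carry ATP, ADP and other metabolites. The uniporter is the calcium channel of the inner membrane: MCU forms the pore, EMRE (the product of SMDT1) couples the pore to its gatekeepers, and gatekeeper subunits such as MICU2 set the calcium level at which it opens. Calcium in the matrix activates dehydrogenases that feed the respiratory chain, and excess calcium favours opening of the permeability transition pore. The series title speaks of an invasive phenotype, PKC and mitochondrial ROS in cells that bind FABP4, which is the setting in which these channels were compared.

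The libraries differed in ways that touch every gene described below. Transcripts of the mitochondrial genome took 2.98% to 3.38% of TPM in the non-binding and 9.99% to 11.2% in the binding libraries, and the 15574 tested genes had a median log2 change of 0.36. Each log2 change is the binding minus the non-binding mean of log2(TPM + 1), a scale that understates the change of low genes, and "relative to all genes" means after subtracting 0.36. Summed TPM of 10 genes typical of the MDA-MB-231 line was 3513 to 3774 in the non-binding and 5255 to 6255 in the binding libraries. Of these 10, 7 were higher and 0 lower. LGALS1 was the largest term, with means of 1373 and 2675 TPM, and MSN and S100A4 had lower means in the binding cells without passing. The sum of 19 epidermal keratinocyte genes was 4083 to 5705 and 1856 to 3233, and 11 of the 18 tested were lower in the binding cells. The luminal epithelial sum (10 genes, ESR1 at 0) was 338 to 369 and 632 to 733, with 3 genes higher and 1 lower of 8 tested. The leukocyte sum (10 genes, CD3D and MS4A1 at 0 in every library) was 35.2 to 59.8 and 27.2 to 49.6, and the adipocyte sum (7 genes, ADIPOQ and LEP at 0) was 62.6 to 77.5 and 59.0 to 86.5. The part of the keratinocyte and luminal genes and of the mitochondrial genome share in the results was not tested. In bulk RNA, fewer cells of a type and less RNA per cell cannot be told apart.

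Of the 8 channel genes, LETM1 was higher and VDAC3 was lower in the binding cells at a Benjamini-Hochberg adjusted p of 0.05 (limma), and 6 did not pass. Among all tested genes 26.7% passed, 19.6% higher and 7.12% lower, so the members' count lay near the background. The 3 binding libraries did not overlap the 3 non-binding libraries for 7 of 8 members, 5 with the binding group above and 2 with it below. Across all tested genes the share without overlap was 52.2%, with 38.6% above and 13.6% below. The members' median log2 change was 0.49, against 0.36 for all tested genes and 0.43 for tested protein-coding genes. MCU, MICU2, MCUR1 and LETM1 had binding means 1.501 to 1.739 times the non-binding means. SMDT1, which like MCU and MICU2 encodes a uniporter subunit, had a ratio of 1.14 with overlapping groups. The outer membrane channels parted: VDAC1 had the higher mean in the binding cells, and VDAC2 and VDAC3 the higher mean in the non-binding cells.

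**Figure D1:**
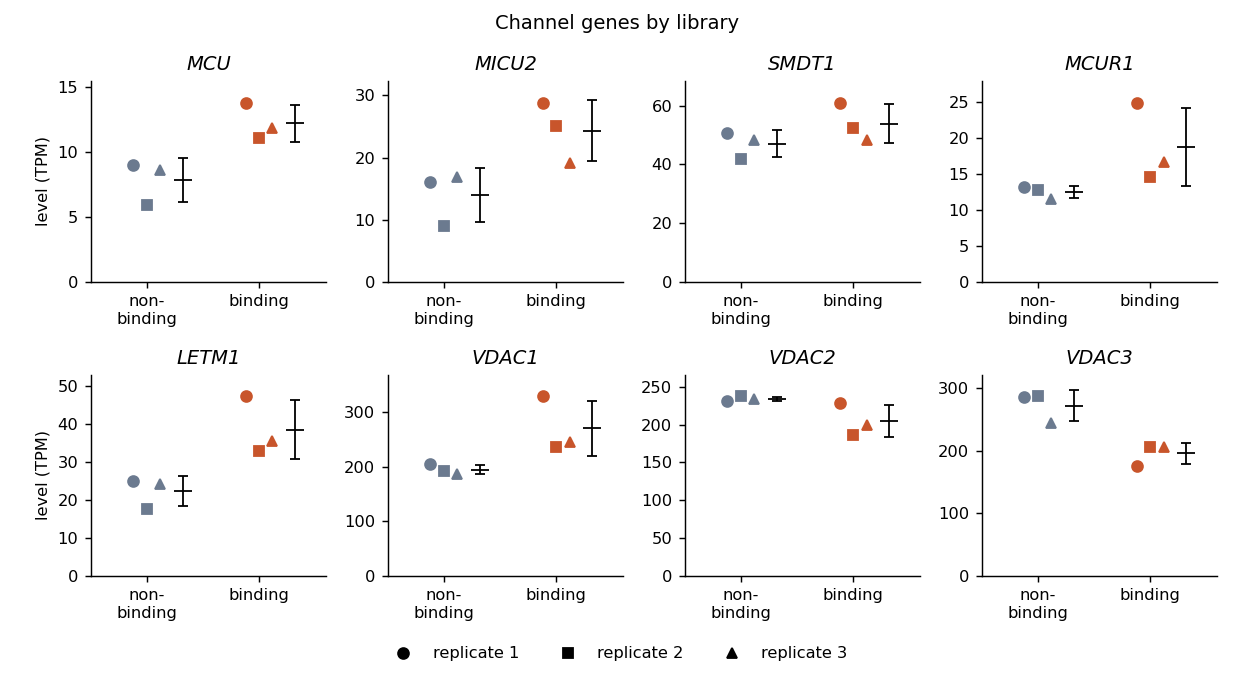
TPM of the 8 channel genes (vertical axes, each from 0) in the 3 non-binding (grey) and 3 binding (orange) libraries; marker shape gives the replicate number, and the black bar beside each group is the mean ± SD. The groups overlap for SMDT1, and in the other panels every binding library lies above (MCU, MICU2, MCUR1, LETM1, VDAC1) or below (VDAC2, VDAC3) every non-binding library.

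The level of VDAC1 has to be read beside its processed pseudogenes, intronless copies of its messenger RNA scattered over the genome. The table holds 13 rows named as VDAC1 pseudogenes, 9 of which have a value above 0 in some library. The stretch below shows how alike the copies are. It spans coding bases 367 to 486 of VDAC1 (transcript VDAC1-202, GENCODE release 29, hg38), 5′ to 3′ on the coding strand, and capitals mark bases that differ from VDAC1. VDAC1P11 (chr9:94287699-94288550, minus strand) was 1 of the 2 VDAC1 pseudogenes with the highest TPM in all 6 libraries, and VDAC1P3 (chrX:91982655-91983505, minus strand) is a closer copy.
VDAC1: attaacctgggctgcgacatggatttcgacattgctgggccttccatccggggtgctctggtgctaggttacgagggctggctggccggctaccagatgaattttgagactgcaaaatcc
VDAC1P11: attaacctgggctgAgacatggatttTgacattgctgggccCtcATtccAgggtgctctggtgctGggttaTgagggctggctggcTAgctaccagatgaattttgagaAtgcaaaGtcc
VDAC1P3: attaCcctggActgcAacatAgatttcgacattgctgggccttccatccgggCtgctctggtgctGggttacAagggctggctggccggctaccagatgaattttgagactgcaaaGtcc

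In this stretch VDAC1P11 differed from VDAC1 at 12 bases and VDAC1P3 at 8. Over the whole coding sequence, identity to VDAC1 was 91.9% for VDAC1P11, 95.2% for VDAC1P3 and 97.4% for VDAC1P1. Of the 50-base windows of each pseudogene, none of VDAC1P11, 8.85% of VDAC1P3 and 25.2% of VDAC1P1 occurred exactly in a VDAC1 transcript. The channel genes themselves are far less alike: identity was 71.6% between VDAC1 and VDAC2, 67.7% between VDAC1 and VDAC3 and 72.0% between VDAC2 and VDAC3, and no pair shared an exact 50-base window. How the submitters assigned reads that fit a gene and its copies is not given in the sources used here, so VDAC1 is uncertain where that choice matters.

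MCU (ENSG00000156026, chr10:72692131-72887694, plus strand, hg38) encodes the pore subunit of the uniporter. Its TPM was 8.99, 5.91 and 8.57 in non-binding libraries 1, 2 and 3 and 13.8, 11.0 and 11.8 in binding libraries 1, 2 and 3. The lowest binding library lay above the highest non-binding library. The mean was 12.2 ± 1.42 TPM in the binding cells and 7.82 ± 1.67 TPM in the non-binding cells (SD, n = 3 each), a ratio of 1.56. The log2 change of 0.60 (SE 0.21, 95% interval 0.11 to 1.08), or 0.24 relative to all genes, did not pass (limma, adjusted p = 0.0667). Non-binding library 2, the lowest for MCU, also had the highest keratinocyte sum.

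SMDT1 (ENSG00000183172, chr22:42079691-42084284, plus strand) encodes EMRE, the small subunit without which the human pore does not conduct. It was listed at 50.8, 41.9 and 48.5 TPM in the non-binding and at 61.1, 52.3 and 48.2 TPM in the binding libraries. Binding library 3 lay within the non-binding range, so the groups overlapped. The means of 53.9 ± 6.58 and 47.1 ± 4.59 TPM (SD, n = 3 each) gave a log2 change of 0.19 (SE 0.15, interval -0.16 to 0.54; limma, adjusted p = 0.357). Its direction turned with the scaling: the change was -0.13 when all libraries were moved to 1 common median and -0.03 after quantile normalization.

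MICU2 (ENSG00000165487, chr13:21492691-21604214, minus strand) encodes a gatekeeper subunit of the uniporter that faces the intermembrane space. Its TPM was 16.0, 9.01 and 17.0 in the non-binding and 28.9, 25.0 and 19.1 in the binding libraries. Binding library 3 was only slightly above non-binding library 3, and the groups did not overlap. The mean was 24.3 ± 4.92 TPM in the binding cells and 14.0 ± 4.34 TPM in the non-binding cells (SD, n = 3 each), a ratio of 1.74. The log2 change of 0.78 (SE 0.27, interval 0.17 to 1.39) was the highest of the 8 as a value and did not pass (limma, adjusted p = 0.0586). MICU2 overlaps the pseudogene FNTAP2 on the opposite strand, and MCU overlaps small genes on its own strand. Whether the counting used strand is not given in the sources used here, so reads of such neighbours may be included.

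MCUR1 (ENSG00000050393, chr6:13786557-13814568, minus strand) encodes a factor that has been tied to uniporter assembly and activity. Its TPM was 13.2, 12.8 and 11.5 in the non-binding and 25.0, 14.7 and 16.7 in the binding libraries. Binding library 1 stood well above the other 2 of its group, whose values lay just over the non-binding range. The mean was 18.8 ± 5.47 TPM in the binding cells and 12.52 ± 0.886 TPM in the non-binding cells (SD, n = 3 each), with a log2 change of 0.52 (SE 0.22, interval 0.01 to 1.02; limma, adjusted p = 0.105). Without binding library 1 the change was 0.30.

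LETM1 (ENSG00000168924, chr4:1811479-1856247, minus strand) encodes an inner membrane cation exchanger that has been described as moving protons against potassium or calcium. Its TPM was 25.0, 17.6 and 24.1 in the non-binding and 47.2, 32.8 and 35.4 in the binding libraries. The lowest binding library lay well above the highest non-binding library. The mean was 38.5 ± 7.72 TPM in the binding cells and 22.2 ± 4.01 TPM in the non-binding cells (SD, n = 3 each), a ratio of 1.73. Its log2 change was 0.76 (SE 0.20, interval 0.30 to 1.23), or 0.40 relative to all genes, and passed (limma, adjusted p = 0.0323). The call was kept without binding library 2 (adjusted p = 0.0454) and lost without any other single library, with adjusted p from 0.0548 to 0.0933 (limma).

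Among the outer membrane channels, VDAC1 (ENSG00000213585, chr5:133971915-134005133, minus strand) encodes the isoform best known for docking hexokinase. Its TPM was 205, 192 and 187 in the non-binding and 329, 236 and 245 in the binding libraries. All 3 binding libraries lay above the non-binding range, with binding library 1 far above the others. The mean was 270.2 ± 51.3 TPM in the binding cells and 195 ± 8.98 TPM in the non-binding cells (SD, n = 3 each), a ratio of 1.39. The log2 change of 0.46 (SE 0.15, interval 0.10 to 0.81), or 0.10 relative to all genes, did not pass (limma, adjusted p = 0.0572). Without binding library 1 the change was 0.31 and passed (limma, adjusted p = 0.0460).

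VDAC2 (ENSG00000165637, chr10:75210154-75231448, plus strand) encodes the isoform known for holding BAK at the mitochondrion. It was listed at 231, 238 and 234 TPM in the non-binding and at 228, 186 and 199 TPM in the binding libraries. The non-binding libraries were close together, and binding library 1 lay just under them. The mean was 205 ± 21.6 TPM in the binding cells and 234 ± 3.17 TPM in the non-binding cells (SD, n = 3 each), and the log2 change of -0.20 (SE 0.12, interval -0.48 to 0.08) did not pass (limma, adjusted p = 0.240). Relative to all genes the change was -0.56.

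VDAC3 (ENSG00000078668, chr8:42391624-42405897, plus strand) encodes the isoform known for its cysteines and weak channel activity. Its TPM was 286, 287 and 244 in the non-binding and 176, 205 and 206 in the binding libraries. Every binding library lay under every non-binding library, and binding library 1 was the lowest. The mean was 196 ± 17.4 TPM in the binding cells and 272 ± 24.9 TPM in the non-binding cells (SD, n = 3 each), 1.39 times higher in the non-binding cells. VDAC3 was lower by limma, with a log2 change of -0.47 (SE 0.13, interval -0.78 to -0.17; adjusted p = 0.0353), or -0.83 relative to all genes. The call was kept without binding library 1 (limma, adjusted p = 0.0406) and lost without any other single library (adjusted p from 0.0627 to 0.103).

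The scaling of the libraries decided which members passed. Once libraries were set to 1 common median, LETM1 did not pass (0.44; limma, adjusted p = 0.0928), and VDAC2 (-0.52, adjusted p = 0.0208) and VDAC3 (-0.79, adjusted p = 0.0220) were lower, where 18.3% of all genes passed, 6.18% higher and 12.1% lower. After quantile normalization 0 members passed by limma (2 higher and 1 lower at an unadjusted p under 0.05), and 15.7% of all genes did, 7.69% higher and 8% lower. When TPM were rescaled without the transcripts of the mitochondrial genome, MCU, MICU2, LETM1 and VDAC1 were higher and VDAC3 did not pass (-0.36; limma, adjusted p = 0.0660), where 33.6% of all genes passed, 28.4% higher and 5.16% lower. Over 15 alternatives, MCU, MICU2, MCUR1 and LETM1 kept a positive change and VDAC2 and VDAC3 a negative one.

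**Figure D2:**
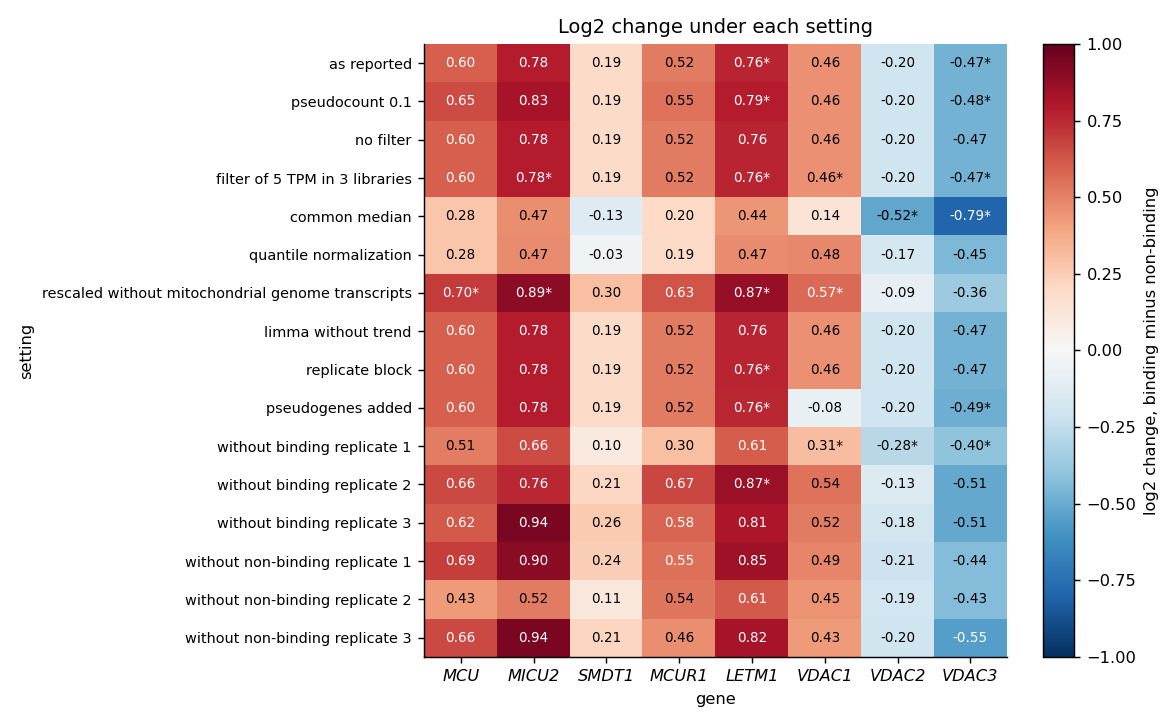
Log2 change of each channel gene (columns), binding minus non-binding, as reported and under each of 15 alternative settings (rows), with the value printed in each cell and an asterisk where the adjusted p was at most 0.05 by limma. MCU, MICU2, MCUR1 and LETM1 are positive and VDAC2 and VDAC3 negative in every row; SMDT1 turns negative in 2 rows and VDAC1 in the row with its pseudogenes added.

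The summed TPM of the 3 VDAC genes overlapped between groups as deposited, while their make-up differed. The sum was 722, 717 and 665 TPM in the non-binding and 733, 628 and 650.3 TPM in the binding libraries. The groups overlapped, with means of 701 ± 31.8 and 671 ± 55.4 TPM (SD, n = 3 each; log2 difference -0.07, exact permutation test, two-sided p = 0.5). The groups separated, with the binding sum lower, under common-median scaling (log2 difference -0.39) and with pseudogenes added (-0.22), each at an exact permutation p = 0.1. VDAC1 made up 28.3%, 26.8% and 28.2% of that sum in the non-binding libraries and 44.9%, 37.6% and 37.7% in the binding libraries. VDAC3 made up 39.6%, 40.1% and 36.7% in the non-binding libraries and 24.0%, 32.7% and 31.7% in the binding libraries. VDAC2 differed least as a share, with 33.4% ± 1.58 in the non-binding and 30.5% ± 0.755 in the binding libraries (SD, n = 3 each). For all 3 shares the groups did not overlap, and the exact two-sided permutation test gave p = 0.1, the smallest that 3 against 3 libraries allow.

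The order of the channels followed these shares when pseudogene rows were left out. In the non-binding cells VDAC3 was the highest of the 8 members, then VDAC2, then VDAC1, with no overlap between neighbours. In the binding cells VDAC1 was the highest, and VDAC2 and VDAC3 overlapped. Below them the order was the same in both groups: SMDT1, LETM1, MICU2 and MCUR1, and MCU last. MICU2 and MCUR1 overlapped in both groups. With pseudogenes added, VDAC1 was the highest of the 3 channels in both groups, for example at a non-binding mean of 416 TPM against 280.4 TPM for VDAC3.

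Counting the pseudogenes with VDAC1 removed most of its difference in TPM as deposited. Their 13 rows summed to 212, 244 and 208 TPM in the non-binding and 94.1, 139 and 141 TPM in the binding libraries. The groups did not overlap, and the pseudogene sum was lower where VDAC1 was higher. It made up 50.8% to 56.0% of VDAC1 plus pseudogenes in the non-binding libraries and 22.2% to 37.0% in the binding libraries. VDAC1 plus its pseudogenes came to 416, 436 and 395 TPM in the non-binding and 423, 375 and 386 TPM in the binding libraries, which overlapped. The log2 change of VDAC1 with its pseudogenes added was -0.08 (limma, adjusted p = 0.624). This lay below the median of 0.36 over all tested genes, whereas VDAC1 alone lay above it. With pseudogenes added for all 3 channels, the VDAC1 share was 44.5% ± 0.340 in non-binding and 49.2% ± 1.43 in binding cells, that of VDAC3 was 29.97% ± 1.15 and 24.9% ± 2.89 (SD, n = 3 each), and neither overlapped between groups. VDAC2 overlapped, at 25.5% and 25.9%.

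**Figure D3:**
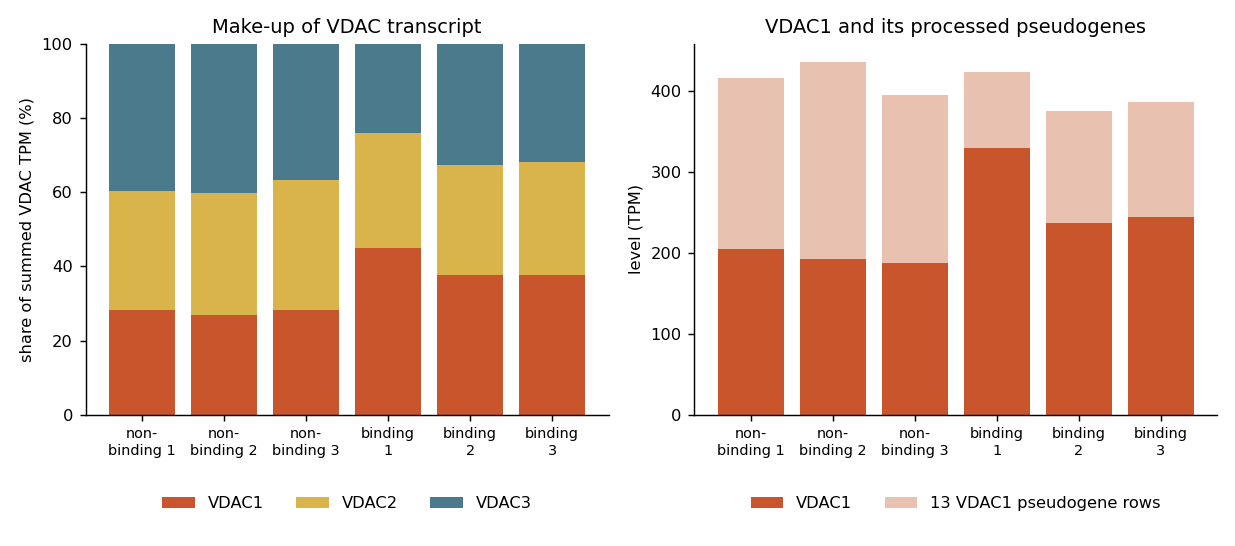
Left, percentage of the summed TPM of the 3 VDAC genes held by each, per library; the VDAC1 share is 26.8% to 28.3% in the non-binding and 37.6% to 44.9% in the binding libraries. Right, TPM of VDAC1 (dark) with the summed TPM of its 13 pseudogene rows (pale) stacked on it, per library; the dark part is higher in the binding libraries and the stacked totals of the groups overlap.

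VDAC1P6 and VDAC1P11 were the 2 highest of the 13 rows in all 6 libraries. VDAC1P6 maps to chromosome Y and is 94.6% identical to VDAC1 over the coding sequence. Of the 50-base windows of VDAC1P6, 15.5% occur exactly in a VDAC1 transcript. The level of VDAC1P6 is not printed, and it counts in every VDAC1 pseudogene sum given here. VDAC1P11 held 35.9% to 39.0% of the pseudogene sum in the non-binding and 37.1% to 45.0% in the binding libraries. It was listed at 82.5, 92.3 and 74.6 TPM in the non-binding and at 35.0, 58.7 and 63.5 TPM in the binding libraries. Its groups did not overlap, and its log2 change of -0.70 (SE 0.23) did not pass (limma, adjusted p = 0.0542). VDAC1P5, with a mean of 2.02 ± 1.06 TPM in the non-binding libraries and 0.196 ± 0.340 TPM in the binding ones (SD, n = 3 each), was lower (log2 change -1.31; limma, adjusted p = 0.0453). VDAC1P3 averaged 10.04 ± 3.87 and 6.03 ± 3.09 TPM and VDAC1P1 averaged 7.08 ± 2.97 and 5.51 ± 1.23 TPM in non-binding and binding cells (SD, n = 3 each), and neither passed (limma, adjusted p = 0.196 and 0.507). VDAC3P1, the 1 pseudogene row of VDAC3 (identity 93.7%), was listed at 6.58, 7.12 and 10.4 TPM in the non-binding and at 4.09, 3.51 and 2.71 TPM in the binding libraries and was lower (log2 change -1.02; limma, adjusted p = 0.0266).

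Lower pseudogene values in the binding cells were seen beyond the VDAC genes. The 1863 processed pseudogenes tested had a median log2 change of -0.64, with 24 higher and 514 lower by limma, against a median of 0.43 for protein-coding genes. Pseudogenes weighed less in the other members: they made up 0.241% to 3.51% of the VDAC2 total and 1.30% to 4.09% of the VDAC3 total, the pseudogene rows of MCUR1 were at 0, and LETM1 with its 1 pseudogene row added still had a log2 change of 0.76. MCU, MICU2 and SMDT1 had no row named as a pseudogene.

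Ratios of TPM within a library do not depend on that library's scaling factor, so 7 of them were compared between groups with an exact two-sided permutation test, for which 0.1 is the smallest p and 0.175 the smallest reached after Benjamini-Hochberg adjustment over the 7. None could therefore pass 0.05. Differences are given on log2(TPM + 1), and ratios are of TPM. The ratio of SMDT1 to MCU was 5.65, 7.10 and 5.65 in the non-binding and 4.43, 4.74 and 4.08 in the binding libraries. These groups did not overlap (log2 difference -0.41, exact permutation p = 0.1).

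Set against the pore, the gatekeeper, the dominant-negative pore subunit and the exporter overlapped between groups. MICU2 to MCU overlapped between groups (1.52 to 1.98 against 1.62 to 2.27; log2 difference 0.19, exact permutation p = 0.4). So did the ratios to MCU of MCUB (log2 difference 0.03, exact permutation p = 0.8), and of SLC8B1, the sodium-calcium exchanger that carries calcium out of the matrix (-0.03, exact permutation p = 1).

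The ratio of VDAC3 to VDAC1 was 1.399, 1.495 and 1.301 in the non-binding and 0.534, 0.869 and 0.842 in the binding libraries. VDAC3 was thus above VDAC1 in all 3 non-binding libraries and below it in all 3 binding libraries (log2 difference -0.93, exact permutation p = 0.1). VDAC2 to VDAC1 was 1.13, 1.24 and 1.25 against 0.694, 0.788 and 0.813 (log2 difference -0.65, exact permutation p = 0.1). With pseudogenes added these differences were -0.42 and -0.13, and VDAC1 was above VDAC2 and VDAC3 in all 6 libraries. The VDAC sum stood at 80.3, 121 and 77.6 times MCU in the non-binding and at 53.2, 56.9 and 55.1 times MCU in the binding libraries, with no overlap (log2 difference -0.66, exact permutation p = 0.1). Without non-binding library 2 this difference was -0.48.

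**Figure D4:**
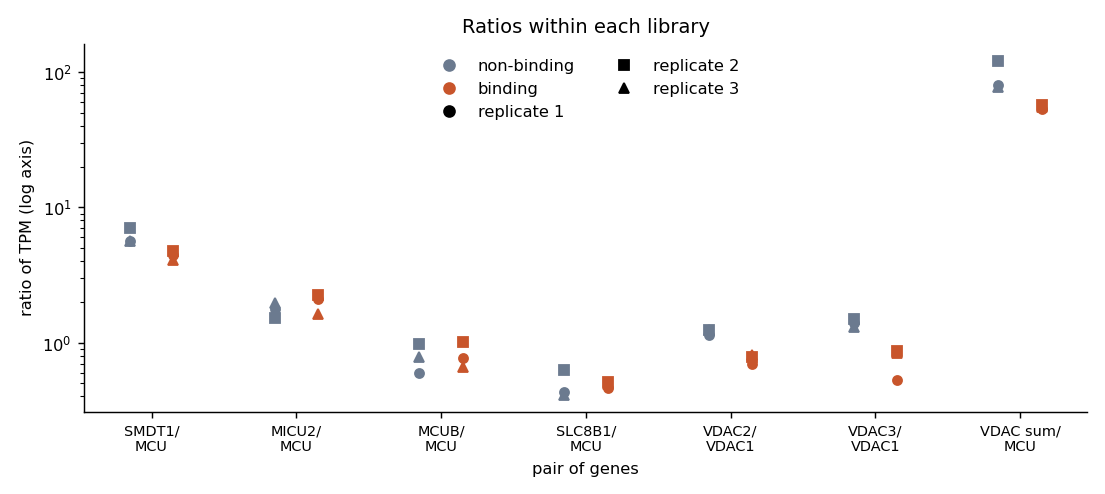
Ratio of TPM within each library (vertical log axis) for 7 pairs of genes or sums (horizontal axis), non-binding in grey and binding in orange, with marker shape for the replicate number. Binding ratios lie below the non-binding ones for SMDT1 to MCU, VDAC2 to VDAC1, VDAC3 to VDAC1 and the VDAC sum to MCU and overlap them for the other 3.

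The members did not move as 1 block across libraries. Binding library 1 was the highest of the 6 libraries for MCU, MICU2, SMDT1, MCUR1, LETM1 and VDAC1 and the lowest for VDAC3. Non-binding library 2 was the lowest for MCU, MICU2, SMDT1 and LETM1 and the highest for VDAC2 and VDAC3. The same 2 libraries were the ends of the keratinocyte sum, lowest at 1856 TPM in binding library 1 and highest at 5705 TPM in non-binding library 2. Likeness of 2 profiles was measured as the root mean square difference of their centred log2(TPM + 1) over the 6 libraries, where 0 means the same profile. By this measure MCUR1 and VDAC1 were the closest pair of members (0.0859), followed by MCU and LETM1 (0.110), and MICU2 and VDAC3 were the farthest apart (0.743). VDAC2 and VDAC3 differed by 0.224 and VDAC1 and VDAC3 by 0.520.

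Among all other tested genes, the nearest profiles to MCU were those of SLC39A7 (0.0256) and TPRA1 (0.0383). For MICU2 they were SPAG1 (0.0498) and OTUD6B-AS1 (0.0583), for SMDT1 JADE2 (0.0278) and GTF2A1 (0.0314), and for MCUR1 YARS (0.0300) and RPAP2 (0.0399). LETM1 lay nearest to LRPAP1 (0.0381) and SGCB (0.0389), VDAC1 near to POLR2D (0.0286), VDAC2 nearest to ESCO1 (0.0243) and ACAD8 (0.0321), and VDAC3 to INTS6 (0.0421) and ZDHHC21 (0.0505). Likeness over 6 libraries says nothing about shared function.

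In position and sequence the members are a mixed set. MCU and VDAC2 lie on chromosome 10, and the other 6 each on a chromosome of their own. Coding lengths ran from 324 bases for SMDT1 to 2220 for LETM1, and coding GC content from 42.4% for MICU2 to 58.8% for LETM1. MICU2 and VDAC3 (43.9%) both were among the genes lowest in GC when 12004 genes were split into 5 bins, and had the highest and the lowest change of the 8. Over these genes the median log2 change went from 0.34 in the lowest to 0.52 in the highest bin of coding GC. The part of GC content in the members' changes was not tested.

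The wider pathway was described with 61 tested genes in 4 lists. Of these, 18 were higher, 2 were lower and 41 did not pass (limma, adjusted p of 0.05), so 29.51% were higher against 19.6% of all tested genes. Their median log2 change was 0.48. With the common median 3 were higher (4.92%, against 6.18% of all genes) and 8 lower (13.1%, against 12.1%). Without non-binding library 3 there were 0 higher by limma, where 0.372% of all genes were higher, both at the adjusted threshold. At an unadjusted p under 0.05 limma gave 24 higher pathway genes, for which no share of all genes is given here. The list's counts, like those over all genes, thus rest on the scaling and on single libraries. For scale, 13 of 36 tested SLC25A carriers were higher and 1 lower, 3 of 23 TIMM and TOMM import genes were higher and 3 lower, and 50 of 83 nuclear respiratory chain subunits were higher and 3 lower.

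Other genes of the uniporter and of matrix calcium numbered 16. Of these, 5 were higher (31.25%), 0 lower by limma (also 0 at an unadjusted p under 0.05) and 11 did not pass. Among all tested genes 19.6% were higher and 7.12% lower, and among protein-coding ones 23.4% and 4.50%. SLC25A23, a calcium-regulated carrier of ATP-magnesium and phosphate, averaged 39.2 ± 1.89 TPM in the binding cells against 17.7 ± 1.33 TPM in the non-binding cells (SD, n = 3 each), with a log2 change of 1.10 (limma, adjusted p = 0.00959). It passed under 13 of 14 alternatives, failing without non-binding library 3 (adjusted p = 0.0517). Its relative SLC25A24 averaged 27.0 ± 5.29 against 15.7 ± 3.94 TPM (log2 change 0.76; limma, adjusted p = 0.0439). GHITM, an inner membrane protein also described as a calcium-proton exchanger, averaged 454 ± 77.0 against 298 ± 11.3 TPM (log2 change 0.59; limma, adjusted p = 0.0261). EFHD1, an EF-hand protein of mitochondria, averaged 16.7 ± 4.61 against 9.32 ± 0.780 TPM (log2 change 0.75; limma, adjusted p = 0.0398). SLC25A24 and EFHD1 each passed under 4 of 14 alternatives and GHITM under 7.

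MICU3, MCUB and SLC8B1 did not pass. MICU3, a gatekeeper best known from brain, averaged 3.02 ± 0.934 against 2.48 ± 0.945 TPM (SD, n = 3 each; log2 change 0.22; limma, adjusted p = 0.602). Its change turned negative under common-median scaling (-0.10) and quantile normalization (-0.01). MCUB averaged 9.84 ± 1.84 in binding against 5.96 ± 0.665 TPM in non-binding cells (log2 change 0.63; limma, adjusted p = 0.0572). SLC8B1 averaged 5.96 ± 0.382 against 3.71 ± 0.187 TPM (log2 change 0.56; limma, adjusted p = 0.0674).

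At the contact with the endoplasmic reticulum, 5 of 22 genes passed as higher, 1 passed as lower and 16 did not pass. These shares, 22.7% higher and 4.5% lower, lay near the 19.6% and 7.12% of all tested genes. ITPR3, an inositol trisphosphate receptor that releases reticular calcium, averaged 57.6 ± 3.42 TPM in the binding cells against 39.0 ± 0.676 TPM in the non-binding cells (SD, n = 3 each; log2 change 0.55; limma, adjusted p = 0.0243). The related ITPR1 (15.4 ± 0.470 against 12.7 ± 1.01 TPM; adjusted p = 0.233) and ITPR2 (5.53 ± 1.70 against 3.16 ± 0.449 TPM; adjusted p = 0.1003) did not pass by limma, and the change of ITPR1 was 0.26 as reported, -0.06 under common-median scaling and -0.07 under quantile normalization. FIS1, an outer membrane fission adaptor, averaged 103 ± 23.3 against 59.1 ± 4.90 TPM (log2 change 0.77; limma, adjusted p = 0.0239). ORAI2, a plasma membrane calcium channel subunit, averaged 13.6 ± 3.48 against 6.59 ± 1.30 TPM (log2 change 0.93; limma, adjusted p = 0.0284).

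TOMM70, an import receptor that has been reported to recruit inositol trisphosphate receptors, was the lower gene of this list. It averaged 113 ± 9.17 TPM in the binding cells against 167 ± 9.40 TPM in the non-binding cells (SD, n = 3 each; log2 change -0.56; limma, adjusted p = 0.0218). HSPA9, the mitochondrial chaperone that bridges VDAC1 and the receptor, did not pass (539 ± 34.0 against 574 ± 19.0 TPM; log2 change -0.09; limma, adjusted p = 0.536), and its change was 0.05 with quantile normalization and 0.02 without mitochondrial genome transcripts. With the common median this list held 0 higher and 4 lower genes by limma (3 and 5 at an unadjusted p under 0.05). That was 0% and 18.2% of the list, against 6.18% and 12.1% of all genes under this scaling.

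Proteins that bind or work with VDAC gave 6 higher, 1 lower and 6 not passing of 13 tested genes. The shares were 46.15% higher and 7.69% lower, against 19.6% and 7.12% of all tested genes. For tested protein-coding genes alone they were 23.4% and 4.50%. The 2 main adenine nucleotide translocases, which exchange ATP and ADP across the inner membrane, went opposite ways. SLC25A6 averaged 541 ± 89.6 TPM in the binding cells against 330.0 ± 36.1 TPM in the non-binding cells (SD, n = 3 each; log2 change 0.70; limma, adjusted p = 0.0209). SLC25A5 averaged 2517 ± 184 against 3617 ± 46.9 TPM (log2 change -0.53; limma, adjusted p = 0.0210). SLC25A4, another translocase of this list, averaged 77.3 ± 5.35 against 97.9 ± 14.7 TPM and did not pass (log2 change -0.33; limma, adjusted p = 0.121). Adenine nucleotide translocase genes have close copies, so their values are uncertain where reads were shared.

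Outer membrane partners were among the higher genes. SAMM50, which inserts barrel proteins such as VDAC into the outer membrane, averaged 26.5 ± 5.88 TPM in the binding cells against 13.2 ± 1.81 TPM in the non-binding cells (SD, n = 3 each; log2 change 0.94; limma, adjusted p = 0.0202). MCL1, an anti-apoptotic BCL2 relative, averaged 362 ± 62.3 against 217 ± 12.6 TPM (log2 change 0.73; limma, adjusted p = 0.0182). TSPO, a cholesterol-binding outer membrane protein, averaged 169 ± 40.0 against 99.7 ± 2.54 TPM (log2 change 0.73; limma, adjusted p = 0.0243). HK2, a hexokinase that docks on VDAC, averaged 82.9 ± 23.6 against 51.7 ± 5.43 TPM and did not pass (log2 change 0.64; limma, adjusted p = 0.0509). With the common median 2 genes of this list were higher and 2 lower (15.4% each, against 6.18% and 12.1% of all genes).

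Targets of matrix calcium showed the lowest median of the 4 lists, 0.16, below the 0.36 of all genes. Of 10 tested, 2 were higher (20%) and 0 lower by limma (1 lower at an unadjusted p under 0.05). Over all tested genes 19.6% were higher and 7.12% lower. The 2 higher genes were PDHA1 and PDHB, which together form the first enzyme of the pyruvate dehydrogenase complex. PDHA1 averaged 58.7 ± 11.1 TPM in the binding cells against 39.9 ± 0.804 TPM in the non-binding cells (log2 change 0.53; limma, adjusted p = 0.0458), and PDHB averaged 66.5 ± 9.70 against 46.4 ± 4.27 TPM (SD, n = 3 each; log2 change 0.50; limma, adjusted p = 0.0461). Both passed under few of the 14 alternatives, PDHA1 under 3 and PDHB under 4. With the common median the list's median was -0.16, with 0 higher and 2 lower by limma (the same counts at an unadjusted p under 0.05). That was 20% lower, where 6.18% of all genes were higher and 12.1% lower.

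**Figure D5:**
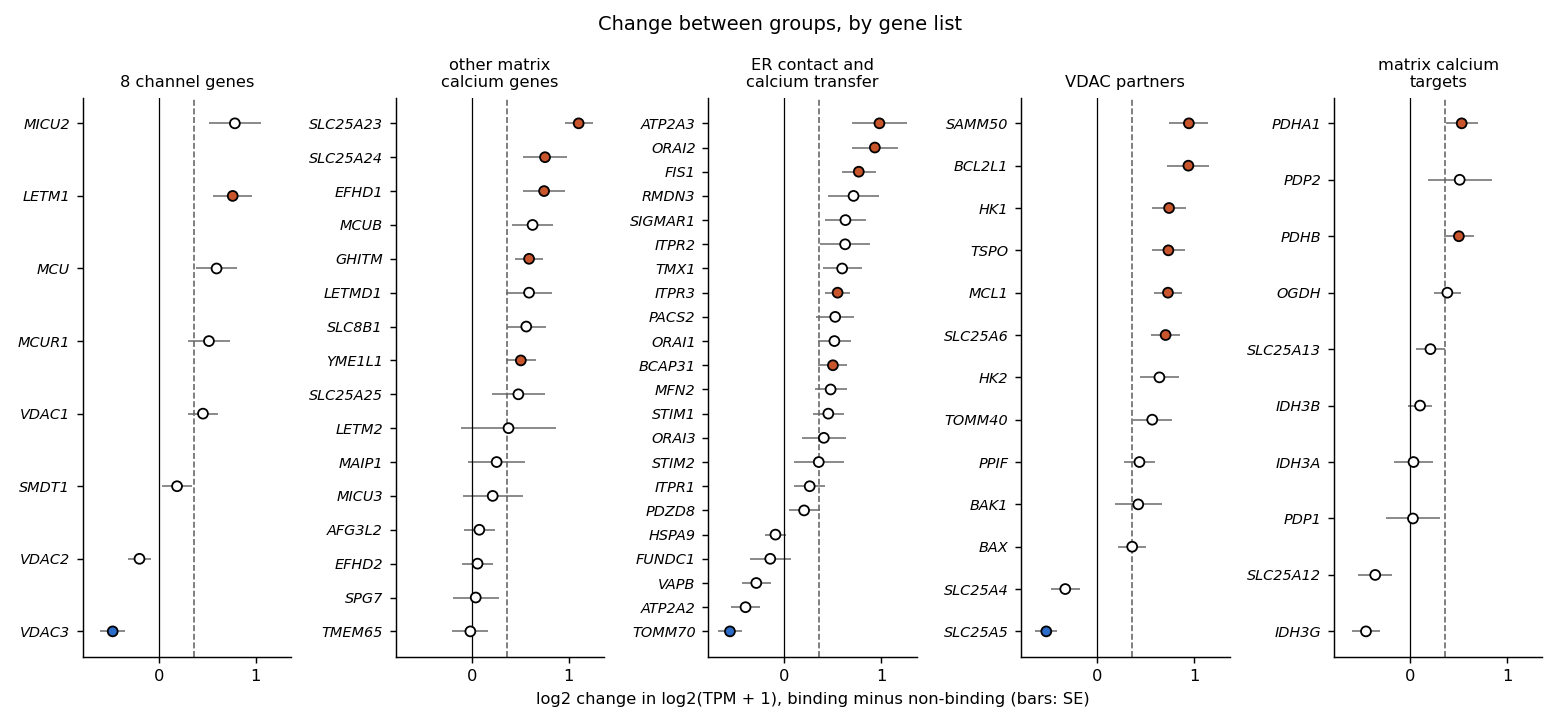
Log2 change in log2(TPM + 1), binding minus non-binding (horizontal axes; bars are the SE), for the 8 channel genes and the tested genes of the 4 pathway lists, each panel ordered by the change. Filled orange points were higher and filled blue points lower at an adjusted p of 0.05 (limma), open points did not pass, the solid line is 0 and the dashed line is the all-gene median of 0.36.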

How the data were processed

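RNA-seq of ribosomal RNA-depleted total RNA was used, 3 libraries per group, grouped by title. The values are TPM as deposited by the authors, each column having the same total. The submitters' processing notes name hg38. For aligner, quantification tool, annotation and strand setting, the answer is not given in the sources used here. Depth cannot be read from TPM, so depth and counting precision are unknown and no interval or floor based on counts was computed.

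Genes that reached 1 TPM in 3 or more libraries (15574 of 58051) were tested on log2(TPM + 1), pseudocount 1, with limma 3.58.1 (trend, no covariate; R 4.3.3) and Benjamini-Hochberg adjustment over all tested genes at 0.05; the procedure was tested on simulated data. Single values were compared with exact permutation tests (scipy 1.17.1). Gene positions, coding sequences and pseudogene identity came from GENCODE release 29, which may not be the submitters' annotation and lists 99.0% of the identifiers.

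Named genes were the 8 members; in each of the 4 pathway lists, those past the threshold with the 4 smallest p; MICU3, MCUB, SLC8B1, ITPR1, ITPR2, ITPR3, HSPA9, HK2 and TSPO whatever they showed; the 2 nearest profiles per member (1 is given for VDAC1, the second nearest); and pseudogenes named as a member symbol plus P and a number, of which those not described singly count in the sums. A few planned results are not reported here. Members and lists were chosen with earlier results of these data known. Alternatives were another pseudocount (0.1), filters (none, 5 TPM), library scalings, limma without trend, a replicate block, added pseudogenes and leaving out each library.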

Additional observations from a re-analysis of the deposited data

How the results depend on the processing

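Of the 8 channel genes, 1 was higher and 1 lower as reported. The higher count was 0 with no filter, 3 with a filter of 5 TPM in 3 libraries, 0 with a common median, 0 with quantile normalization, 4 without mitochondrial genome transcripts, 0 without the limma trend, and 0 to 1 with single libraries left out. The lower count was 0 with no filter, 2 with a common median, 0 with quantile normalization, 0 without mitochondrial genome transcripts, 0 without the trend, 0 with the replicate block, and 0 to 2 with single libraries left out. At an unadjusted p under 0.05 limma gave 1 to 5 higher and 1 to 2 lower members over these settings. No share of all genes at an unadjusted p is given here, so such counts have no background to be read against. Over all tested genes 3047 were higher and 1109 lower; these were 962 and 1890 with a common median, 1197 and 1246 with quantile normalization, 4477 and 813 without mitochondrial genome transcripts, 1373 and 500 with no filter, 1992 and 567 without the trend, and, with single libraries left out, as few as 58 and 6 (without non-binding library 3). The 18 higher and 2 lower pathway genes became 7 and 1 with no filter, 3 and 8 with a common median, 10 and 2 with quantile normalization, 33 and 2 without mitochondrial genome transcripts, 9 and 0 without the trend, and 0 to 12 and 0 to 2 with single libraries left out. With a filter of 5 TPM in 3 libraries, 26 of 55 tested pathway genes were higher and 3 lower. Of all genes tested under that filter, 32.7% were higher and 11.7% lower, which is also the background for the 3 higher members. The VDAC sum turned to 0.0469 (log2) without mitochondrial genome transcripts and was -0.385 with a common median and -0.221 with pseudogenes added. SLC8B1 to MCU turned to 0.0165 with pseudocount 0.1 and ranged from -0.13 to 0.13 with single libraries left out, as MCUB to MCU did from -0.13 to 0.19. Signs also turned for SMDT1 (-0.13 with a common median, -0.0319 with quantile normalization), VDAC1 (-0.0753 with pseudogenes added), MICU3 (-0.101 with a common median, -0.0118 with quantile normalization), ITPR1 (-0.0581 and -0.0716 with these scalings) and HSPA9 (0.0495 with quantile normalization, 0.0207 without mitochondrial genome transcripts). The cause of these shifts was not tested. Same-numbered libraries of the groups did not deviate together (correlations of 0.03, -0.02 and 0.03), so the replicate block, with 3174 higher and 1132 lower genes, is not a paired analysis. With that block VDAC3 had a limma adjusted p of 0.0500368. No depth is known, so the counting error of low values such as those of MICU3 cannot be estimated.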
